A study of Mus musculus with 23 samples.

Results

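Zbtb11 is a BTB and zinc finger transcription factor that was mapped by ChIP-seq in mouse embryonic stem cells (ESCs). The windows described here are the weak peaks at one-way promoters. They were chosen by their measured coverage. Of 7500 consensus peaks, they are those with a mean coverage over the 4 Zbtb11 antibody libraries below 71.3, about the median of all windows. Each also overlapped a promoter and lay outside divergent pairs of gene starts. A promoter reached from 2 kb upstream to 500 bases downstream of an annotated transcript start, and windows at divergent pairs, where gene starts on opposite strands lie within 1 kb and point apart, were left out. The rule was met by 1480 windows (19.7% of all windows), which lay at the promoters of 1665 genes. One-way refers to gene starts only. With divergent pairs taken from any transcript starts, 1414 of the windows stayed, so some have transcript starts in both directions. Of the 1665 genes, 1468 were protein-coding, 61 were long intergenic noncoding RNAs, 52 were processed transcripts and 32 were pseudogenes, and the others were small RNAs. A window touched the promoter of 1 gene in 1294 cases and those of 2 to 5 genes in 186. For 60 of the genes another window at or above the limit lay at a promoter of the same gene, and the other 1605 had weak windows alone.

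Coverage came from 2 kinds of ChIP in the E14 line. Zbtb11 antibodies were used in 4 replicates of E14 WT cells, and FLAG antibodies in 3 replicates of Zbtb11 FLAG/FLAG cells, a homozygous line whose endogenous Zbtb11 carries the tag. FLAG ChIP in 2 replicates of untagged WT cells was the background control, and none (0) of the 1480 windows overlapped a peak of that control. The authors had removed peaks shared with that control from the FLAG-Zbtb11 list, so this 0 follows from how the consensus peaks were made. RNA-seq was done after 48 h in 3 replicates each of 3 groups. The Zbtb11 KO group was Zbtb11 lox/lox R26 ERt2-Cre cells given 250 nM 4OHT, which activates the Cre recombinase, and the EtOH control was the same cells given ethanol. The deletion takes out exon 3 and is predicted to leave a truncated N-terminal fragment. The 4OHT control was a separate line, Zbtb11 wt/wt R26 wt, given the same 250 nM 4OHT, so that in any comparison with it the line and the genotype cannot be told apart. The annotation used for counting has no row named Zbtb11, and the row named Rpl24 spans both neighbouring genes, so the counts do not show the loss of exon 3. Counts on genes ran from 14301457 to 23876604 per RNA library. All 9 ESC markers (among them Pou5f1, Sox2 and Nanog) were above 1 CPM in each of the 9 libraries, with a summed level of 4421 to 5340 CPM, whereas the summed levels were at most 11.5 CPM for the endoderm, mesoderm and trophoblast lists, 37.3 to 50.8 CPM for the neural list (2 of 3 genes matched) and 17.5 to 38.3 CPM for the fibroblast list.

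Most mammalian promoters of widely used genes sit in CpG islands, stretches rich in the dinucleotide CG that lack DNA methylation in most tissues. Many of these promoters also hold the letters CCGGAAG, the core read by ETS family factors. One of them, NRF-2/GABP, activates nuclear genes for the respiratory chain and for mitochondrial protein synthesis.

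The matches to CCGGAAG nearest the middle of the windows show what this motif looks like at weak promoter peaks. Each line gives 10 bases on either side of a match, read in the direction of the match, with the motif in capitals. Positions are from mm9, and the genes span respiratory, ribosomal, import, chromatin and RNA-processing roles.

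Cox6b1, chr7:31410970-31410996, plus strand: cccgtggccgCCGGAAGtttctgcttg
Rpl8, chr15:76734471-76734497, plus strand: tggccccgccCCGGAAGataaggctgc
Slc25a5, chrX:34336281-34336307, plus strand: ggccggcaggCCGGAAGtggacgccgg
Tomm70a, chr16:57121737-57121763, plus strand: ccttctgaccCCGGAAGtggttctccc
Slc25a17, chr15:81191256-81191282, minus strand: agtctgtgacCCGGAAGcagtcgttct
Eif3g, chr9:20703062-20703088, minus strand: ggccgcggcaCCGGAAGcctcttctac
Kdm5c, chrX:148667455-148667481, minus strand: tctagacaaaCCGGAAGaggagctagt
Zfp330, chr8:85298123-85298149, plus strand: acccgccttcCCGGAAGtggacttgct
Ppih, chr4:118993171-118993197, plus strand: gcgccccgccCCGGAAGtgtggcgcgc

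The match in the Slc25a5 window was 7 bases from the window centre and that in the Ppih window 17 bases, whereas those of Rpl8 and Zfp330 lay 144 and 142 bases away. None of these 9 stretches overlapped an annotated exon. Longer exon-free stretches from the middle of 3 windows show the range of promoter sequence, 2 of them in CpG islands with a match and 1, upstream of Pou5f1, with neither. They are printed on the strand of the gene, so that a match on the other strand appears as CTTCCGG.

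Kdm5c, chrX:148667413-148667562, plus strand: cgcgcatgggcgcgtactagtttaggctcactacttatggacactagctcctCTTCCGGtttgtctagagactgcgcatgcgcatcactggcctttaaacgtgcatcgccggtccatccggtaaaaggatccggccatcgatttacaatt
Slc25a17, chr15:81191196-81191359, minus strand: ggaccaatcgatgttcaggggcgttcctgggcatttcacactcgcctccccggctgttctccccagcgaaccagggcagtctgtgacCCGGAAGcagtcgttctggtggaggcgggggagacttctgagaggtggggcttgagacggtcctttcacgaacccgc
Pou5f1, chr17:35641805-35642104, plus strand: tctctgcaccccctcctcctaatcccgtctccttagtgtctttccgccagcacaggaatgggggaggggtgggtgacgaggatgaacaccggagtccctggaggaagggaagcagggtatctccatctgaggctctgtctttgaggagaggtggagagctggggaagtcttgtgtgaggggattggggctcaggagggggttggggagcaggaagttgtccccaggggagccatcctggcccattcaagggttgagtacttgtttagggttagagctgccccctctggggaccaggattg

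Weak one-way promoter windows had low coverage in every library, including those that did not enter the rule. Their median coverage was 43.3, 41.7, 49.6 and 44.3 in Zbtb11 replicates 1 to 4, and 47.5, 48.3 and 55.1 in FLAG-Zbtb11 replicates 1 to 3. The library medians averaged 44.8 ± 3.44 (SD, n = 4) with Zbtb11 antibodies and 50.3 ± 4.20 (SD, n = 3) with FLAG. Intermediate one-way promoter windows, from the limit up to 308.9, had medians of 120.0 to 125.3 in the Zbtb11 libraries and 112.4 to 114.4 in the FLAG libraries. The 2 ranges of library medians did not overlap in the FLAG libraries either. The rule did not use these libraries, but they map the same protein. Their means went with the Zbtb11 means over all windows (Spearman's rho 0.83), so this gap is not separate support for the classes. Strong promoter windows, above 308.9 and including divergent pairs, had medians of 452.6 to 714.0 with Zbtb11 antibodies and 343.6 to 574.6 with FLAG. The weak windows at promoters lay slightly above weak windows away from promoters, whose medians were 31.9 to 38.9 with Zbtb11 antibodies and 33.6 to 40.1 with FLAG.

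**Figure D1:**
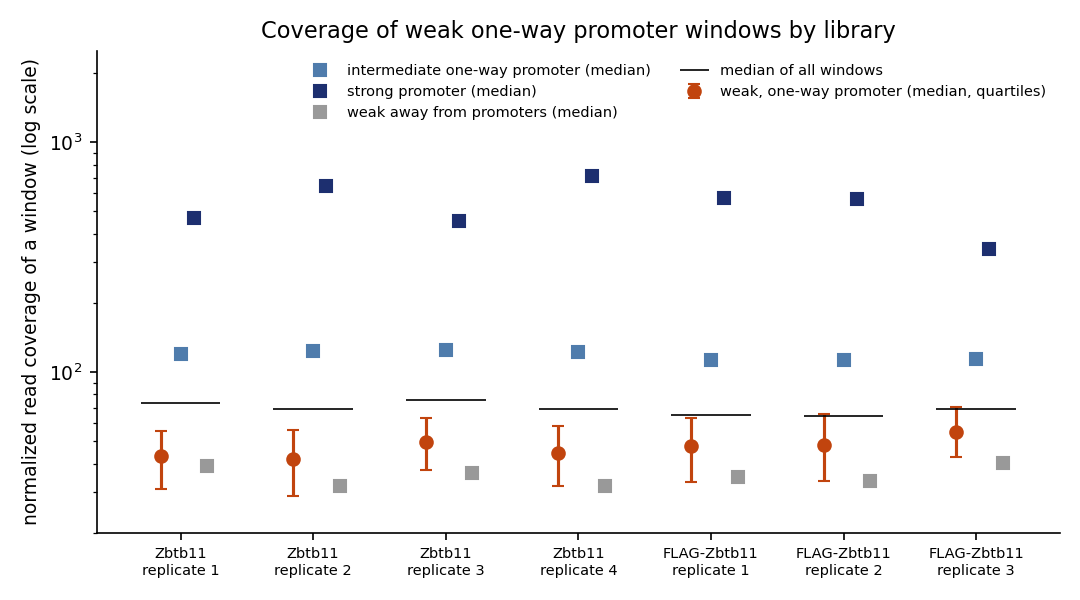
Normalized read coverage (log scale) of weak one-way promoter windows in each of the 7 libraries, as the median with its quartiles, beside the medians of intermediate one-way promoter windows, strong promoter windows, weak windows away from promoters and all windows (black lines). The weak promoter medians of 41.7 to 55.1 lie under the all-window median in all 7 libraries, and their upper quartile reaches it in FLAG-Zbtb11 replicates 2 and 3.

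The limit held less tightly in single libraries. Of the 1480 windows, 1042 (70.4%) were below the library median in all 4 Zbtb11 libraries and 847 (57.2%) in all 3 FLAG libraries, and 693 (46.8%) in all 7. In single Zbtb11 libraries 86.5 to 92.9% of the windows were below the median, against 71.9 to 76.0% in single FLAG libraries. A mean FLAG coverage above the FLAG median of all windows (65.6) was found for 361 windows (24.4%), and 3 windows reached the upper quartile of 128. In all 3 FLAG libraries at once, 171 windows (11.6%) were above the median. The windows that were weak with Zbtb11 antibodies were therefore mostly but not always below the median with FLAG.

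Every coverage value was a whole number of steps, where 1 step is the smallest unit of a library, from 0.418 to 1.77 (tolerance 0.0001 of a step). If a step is 1 read, the median window had 25 to 82 reads in the Zbtb11 libraries and 30 to 132 in the FLAG libraries, with a counting error of 8.70 to 20%. The coefficient of variation between the 4 Zbtb11 libraries had a median of 27.4% in these windows, against 16.8% in intermediate and 23.4% in strong promoter windows. Between the 3 FLAG libraries, which the rule did not use, it was 22.0% in weak, 15.6% in intermediate and 25.3% in strong windows. Over the 1480 windows, Spearman's rho between 2 Zbtb11 libraries was 0.36 to 0.65 (6 pairs), between 2 FLAG libraries 0.64 to 0.69 (3 pairs), and between the Zbtb11 and FLAG means 0.56, against 0.83 over all 7500 windows. These are descriptions across windows that share libraries and a cut range of values. A value of 1 step was listed in 1 or more Zbtb11 libraries for 33 windows and in 1 or more FLAG libraries for 5.

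The windows next to the limit were picked for a Zbtb11 mean near it, and their FLAG means ranged widely. The window at Cdca7, a cell-division associated gene, had 58.9, 44.9, 87.2 and 94.0 in Zbtb11 replicates 1 to 4 and 60.2, 84.8 and 98.1 in FLAG-Zbtb11 replicates 1 to 3. That at Dkkl1 had 80.0, 64.1, 71.4 and 69.2 with Zbtb11 antibodies and 57.0, 59.9 and 57.2 with FLAG. The window at Ppih, which codes for a cyclophilin of the spliceosome, had 94.5, 48.1, 79.9 and 62.1 with Zbtb11 antibodies and 101, 98.0 and 98.1 with FLAG. Just above the limit, the means at Atcay, Lmf1 and Ythdf3 were 71.3, 71.3 and 71.4 with Zbtb11 antibodies and 29.3, 69.2 and 96.3 with FLAG. The 3 windows under the limit had Zbtb11 means of 71.1, 71.2 and 71.3 and FLAG means of 99.1, 58.1 and 81.0. Over these 6 windows the FLAG means ran from 29.3 at Atcay to 99.1 at Ppih, on both sides of the limit.

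The highest FLAG coverage among the weak windows was found at 1500001M20Rik, H2afv, Rfk, Mgea5 and Rpsa. At 1500001M20Rik it was 161, 145 and 140 in the 3 FLAG libraries, with 60.02, 78.5, 76.3 and 51.4 in the 4 Zbtb11 libraries. H2afv, which codes for the histone variant H2A.Z.2, had FLAG coverage of 140.9, 149.1 and 104.0 and Zbtb11 coverage of 53.4, 54.5, 79.3 and 83.4. At Rpsa, a protein of the small ribosomal subunit, FLAG coverage was 138, 114 and 119 and Zbtb11 coverage 80.0, 51.3, 86.6 and 51.4. In these 3 windows every FLAG value was above every Zbtb11 value. They were picked for high FLAG coverage under a capped Zbtb11 mean, so the gap follows in part from the choice. The FLAG mean was above the Zbtb11 mean in 1012 of the 1480 windows. Rfk (riboflavin kinase) and Mgea5 (the enzyme that removes O-GlcNAc) had mean FLAG coverage of 128.5 and 123.9 and mean Zbtb11 coverage of 68.8 for both. All 5 windows held a CpG island, and their centres were within 217 bases of a transcript start.

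The windows with the lowest FLAG coverage were of another kind. Those nearest to Lrrc23, a U1 small nuclear RNA, Gm11946, Wfs1 and Gm10804 had FLAG means of 8.91 to 12.4, and none of them held a CpG island or the motif. The window by the U1 gene had 120, 68.9, 49.0 and 26.6 with Zbtb11 antibodies but 7.92, 8.77 and 10.9 with FLAG. The groups did not overlap, but the window was picked for its low FLAG coverage, so the gap follows in part from the choice. The reverse was seen in the window centred at -1815 bases from the start of Ttll1, a tubulin glutamylase subunit, with 4.45, 1.60, 0.605 and 1.77 with Zbtb11 antibodies and 53.8, 55.6 and 48.01 with FLAG. In 3 of the 4 Zbtb11 libraries that was 1 step. The Ttll1 window was picked for the lowest Zbtb11 mean, so its gap also follows in part from the choice. The next lowest Zbtb11 means, 6.80 to 9.49, were at a 7SK gene, Arntl2 (a partner of the circadian factor Clock), Papss1 (which makes the sulphate donor PAPS) and Gm17014, with FLAG means of 23.6 to 36.2.

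The weak windows centred on transcript starts, though less sharply than stronger peaks. Their centres lay a median of 139.5 bases from the nearest transcript start, against 108 bases for intermediate one-way and 57 bases for strong promoter windows. Within 200 bases of a start were 887 windows (59.9%), against 66.0% of intermediate and 81.2% of strong windows. Another 158 windows (10.7%) were centred over 500 bases upstream and 126 (8.51%) over 500 bases downstream of the nearest start, against 3.40% and 2.58% of the strong windows. The median signed position was 26 bases downstream of the start, and that of strong windows 17 bases upstream. The centre fell in an exon in 644 windows (43.5%), in an intron in 483 (32.6%) and outside genes in 353 (23.9%), whereas strong windows were centred outside genes in 38.3% and in introns in 16.7%. The peaks called by the authors under the weak windows had a median width of 1108 bases with Zbtb11 antibodies and 1120 bases with FLAG, against 1966 and 1933 bases under strong windows. The promoter rule itself bounds these distances. The strong class includes windows at divergent pairs, which the weak and intermediate one-way classes leave out, so its position is not compared over the same kind of promoter.

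**Figure D2:**
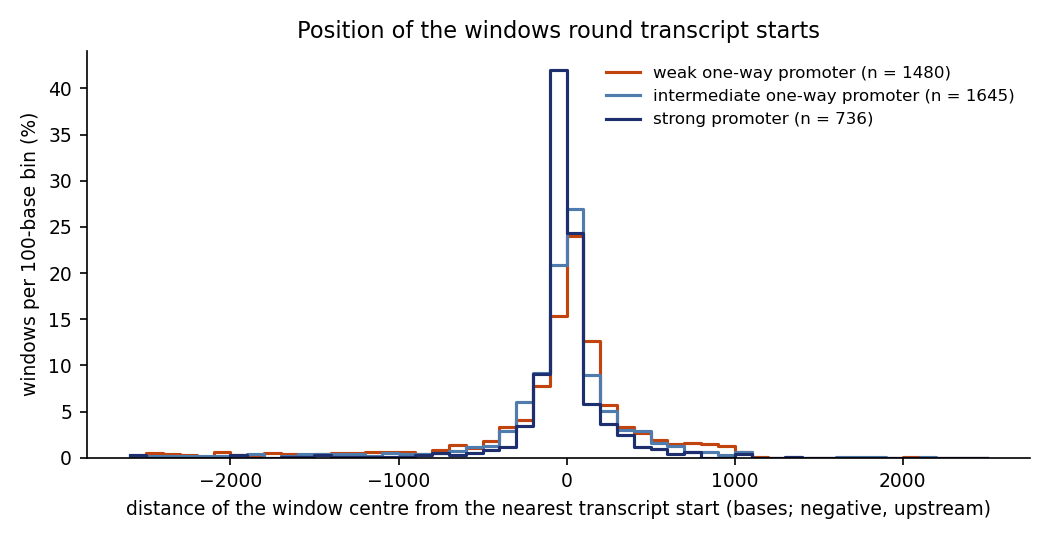
Share of windows (%) in each 100-base bin of the distance between the window centre and the nearest transcript start, in bases on the strand of that transcript, for weak one-way (n = 1480), intermediate one-way (n = 1645) and strong promoter windows (n = 736). Strong windows peak just upstream of the start, while weak windows spread further to both sides, with 80.8% within 500 bases against 94.0%.

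Most weak promoter windows lay in CpG islands. Islands were called where 500 bases or more had a GC content of 55% or above and a CpG count of 0.65 or more of that expected from the base composition. One was found in 1097 windows (74.1%, 95% Wilson interval 71.8 to 76.3). The share was 83.4% in intermediate one-way windows, a difference of -9.28 percentage points (95% Newcombe interval -12.2 to -6.42), and 89.9% in strong promoter windows (difference -15.8, interval -18.8 to -12.6). Weak windows away from promoters held an island in 9.86%. The intervals cover counting over windows only. The island share of weak promoter windows was nearer to that of the stronger promoter windows than to that of weak windows elsewhere, whose coverage was lower.

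The motif share also lay between those of stronger promoter windows and of weak windows elsewhere. CCGGAAG was found on either strand in the central 300 bases of 438 windows (29.6%, interval 27.3 to 32.0). It was found in 41.8% of intermediate (difference -12.2 percentage points, interval -15.5 to -8.82) and 52.4% of strong windows (difference -22.9, interval -27.1 to -18.5), and in 15.8% of weak windows away from promoters (difference 13.8, interval 11.0 to 16.6). Among windows with an island, 32.4% of the weak, 45.2% of the intermediate and 56.2% of the strong promoter windows held the motif. Among windows without an island these shares were 21.7, 24.5 and 18.9%, with intervals that overlapped. A single match was found in 374 of the weak windows, a pair in 60 and 3 or more in 4. The window with most matches, 5, was at Nom1, which codes for a nucleolar protein, with coverage of 37.8, 22.4, 34.5 and 12.4 with Zbtb11 antibodies and 76.0, 57.0 and 73.1 with FLAG.

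**Figure D3:**
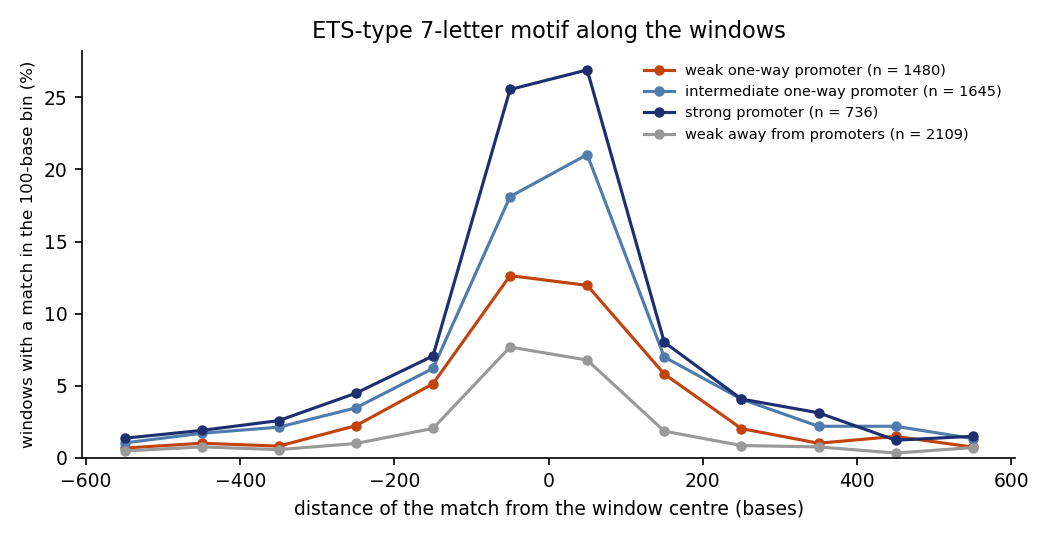
Share of windows (%) with at least 1 match to CCGGAAG on either strand in each 100-base bin, by distance of the match from the window centre in bases, for weak one-way, intermediate one-way and strong promoter windows and weak windows away from promoters. In weak promoter windows the share is 12.6% and 11.96% in the 2 bins next to the centre and at most 1.49% beyond 300 bases, so the matches gather at the centre as in the stronger windows (25.5% and 26.9%).

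Most other promoter letters differed less between the classes. GGGCGG, the GC box of Sp factors, was in 56.6% of the weak, 58.9% of the intermediate and 54.5% of the strong windows (difference from intermediate -2.28 percentage points, interval -5.75 to 1.18). The E-box CACGTG was in 7.30, 7.66 and 7.61%, the YY1 letters AAGATGGCG in 2.36, 2.37 and 2.31%, the CRE TGACGTCA in 1.76, 2.07 and 1.49%, and CCAAT in 22.8, 20.8 and 24.6%. For these 4 the interval of the difference between weak and intermediate windows included 0, which does not show that they are alike. The NRF-1 letters GCGCATGCG were in 16 weak windows (1.08%), against 1.52% and 2.31%. The difference from intermediate windows was -0.44 percentage points (interval -1.26 to 0.39), and that from strong windows -1.23 (interval -2.65 to -0.14). Over whole windows the shares were 3.45, 4.62 and 4.35% in weak, intermediate and strong windows, with intervals that overlapped. All letters were searched on both strands, and CCGGAAG matches are also matches of the shorter CGGAAG, found in 47.8% of the weak windows.

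The motif was more frequent at the starts of these genes than at expressed genes without a peak. In the 300 bases around the annotated gene start, CCGGAAG was found for 21.7% of the 1468 protein-coding genes with a weak one-way window (interval 19.6 to 23.8). It was found for 7.78% of the 7785 expressed protein-coding genes with no Zbtb11 peak at the promoter (interval 7.21 to 8.40), and for 11.3% of all 22380 protein-coding genes. CpG islands were also more frequent at the gene starts, at 79.0% against 69.6% of the expressed genes without a peak. The GC box was found for 68.7% against 62.9% and the E-box for 9.33% against 9.15%, and CCAAT was found less often, for 31.7% against 37.7%.

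FLAG coverage, which the rule did not use, varied with these features inside the set. The 1480 windows were divided into 4 equal groups of 370 by mean FLAG coverage, with medians of 31.1, 44.9, 57.6 and 76.0. CCGGAAG was found in 19.5% of the windows of lowest FLAG coverage and then in 25.9, 35.7 and 37.3% (intervals 15.7 to 23.8 in the lowest and 32.5 to 42.3 in the highest group). CpG islands were found in 53.0% of the lowest and 85.9% of the highest group. Zbtb11 coverage moved in the same direction, from a median of 34.1 to 58.5, so the groups differ in both. Windows with the motif had a median FLAG coverage of 56.1 against 48.2 without it. Their Zbtb11 medians were 45.6 and 45.4, but the rule caps the Zbtb11 mean of every window and not the FLAG mean. The near-equal Zbtb11 medians therefore cannot show whether the motif goes with Zbtb11 coverage, or whether the antibodies differ in this. Windows with an island had a median FLAG coverage of 53.9 against 40.2, and a median Zbtb11 coverage of 47.8 against 39.1. The 383 windows without an island were also further from a start, with a median of 414 bases against 119.

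**Figure D4:**
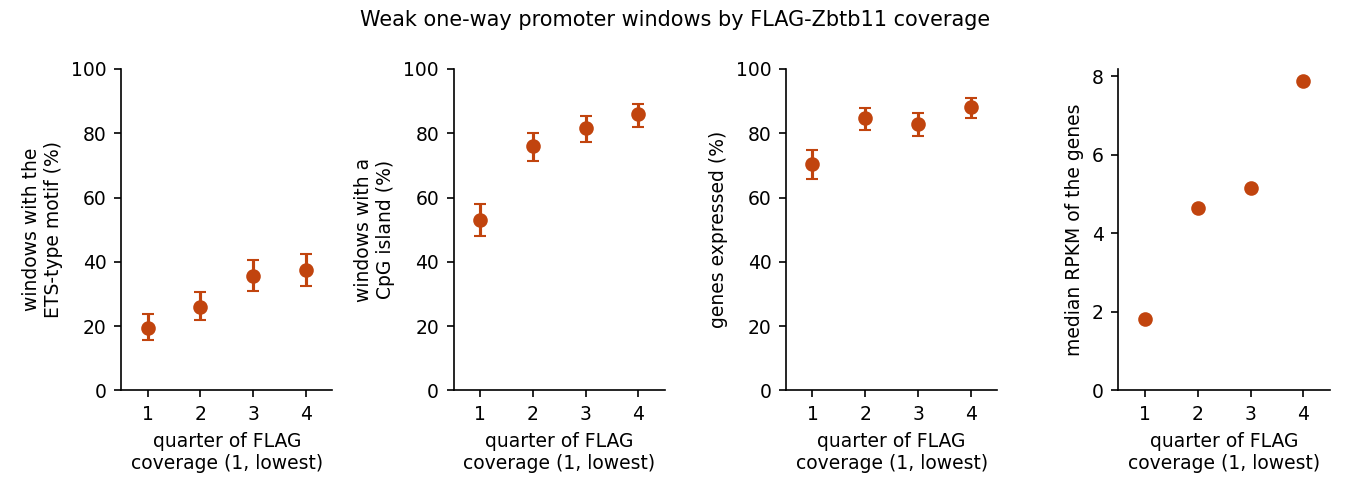
Weak one-way promoter windows in 4 equal groups of mean FLAG-Zbtb11 coverage (370 windows each). Shown are the share of windows holding CCGGAAG (%) and the share with a CpG island (%). Also shown are the share of their genes that are expressed (%) and the median RPKM of all these genes, expressed or not. Points are shares with 95% Wilson intervals, and the motif share runs from 19.5 to 37.3%, the island share from 53.0 to 85.9% and the expressed share from 70.5 to 88.1%.

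Genes at weak windows were mostly active in ESCs. Of the 1468 protein-coding genes, 1326 (90.3%, interval 88.7 to 91.7) were expressed at more than 1 CPM in at least 3 of the 9 libraries. The share was 94.8% at intermediate one-way and 95.8% at strong windows, and 47.6% for genes with no peak at the promoter. On a scale of counts per kilobase of exon, scaled to library size (RPKM), the expressed genes had a median level of 7.10, against 10.0 at intermediate and 10.2 at strong windows and 4.41 for expressed genes without a peak. The median was 6.93 to 7.16 in each of the 9 libraries. Of the 197 genes of other types, 31 (15.7%) were expressed. Genes at windows without an island were expressed less often (69.5% against 85.5% with an island, all gene types). Their median level, over expressed and unexpressed genes together, was also lower (1.56 against 6.21 RPKM), so it partly restates the expressed share. In bulk samples a lower level in all cells and expression in fewer cells cannot be told apart.

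The genes covered many basic cell functions. Among those with the highest levels were RNase_MRP (the RNA of an RNA-processing enzyme), Rpl8, Gapdh, Rps15, Rpl36, Rpsa, Ywhae, Eef1g and the small nucleolar RNA SNORA73, from 18014 RPKM for RNase_MRP to 356 RPKM for SNORA73. SNORA73 is a repeated small RNA and lies within Rpsa, so its counts are uncertain, and levels of such short RNAs depend on their length. Rpl8, a protein of the large ribosomal subunit, was at 1392 RPKM, and its window had 46.7, 54.5, 60.5 and 39.0 with Zbtb11 antibodies and 45.9, 32.2 and 96.4 with FLAG. Gapdh, a glycolytic enzyme at 1081 RPKM, had 43.3, 48.1, 43.6 and 62.1 with Zbtb11 antibodies and 41.2, 32.2 and 47.6 with FLAG. At both genes the coverage was near the median of the set. In the row that spans Rpl24 and Zbtb11, named here outside the rule after its values were seen, the weak window lay at the Rpl24 start with a Zbtb11 mean of 44.5, and a window of 716 lay 7482 bases away.

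Mitochondrial genes were present, with their weak windows set beside the strong ones by list. Of 5247 genes with any window at the promoter, 31.7% had a weak one-way window. Of the 12 genes of complex I subunits with a window, 7 had a strong window and 1, Ndufb2, a weak one-way window (8.33%). Of the 43 mitoribosome genes with a window, 19 had a strong and 10 a weak one-way window (23.3%), with Mrpl34, Mrpl4, Mrps7 and Mrps2 at the highest levels (37.6 to 28.8 RPKM). The weak window of Mrpl34 was centred 115 bases past the start of Abhd8. Another window at a promoter of Mrpl34, with a Zbtb11 mean of 260.7, lay 1368 bases away. Among 23 genes for the other respiratory complexes 1 had a strong window and 7 a weak one (30.4%), led by Atp5a1, Cox6b1, Cox6a1 and Cox7c. Among 28 genes for mitochondrial carriers and import 4 had a strong and 14 a weak one-way window (50%), among them Slc25a5 (an ADP/ATP carrier, 288.7 RPKM), Tomm70a and Tomm5 (parts of the outer membrane import machinery) and the peroxisomal carrier Slc25a17. The window at Tomm70a had 41.1, 33.7, 72.1 and 83.4 with Zbtb11 antibodies and 58.6, 92.1 and 104 with FLAG, and that at Cox6b1, a subunit of cytochrome c oxidase, 26.7, 11.2, 20.6 and 17.7 with Zbtb11 antibodies and 39.6, 35.1 and 38.8 with FLAG. At Cox6b1 all FLAG values were above all Zbtb11 values, and at Tomm70a the groups overlapped. At Mrpl4 coverage was 32.2, 56.1, 44.8 and 24.8 with Zbtb11 antibodies and 69.7, 70.2 and 53.0 with FLAG.

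The other lists differed in how many of their genes had a weak one-way window. For the cytosolic ribosome 11 of 42 genes with a window had a weak one-way window (26.2%), for translation factors 8 of 32 (25.0%, with Eef1g, Eif4ebp1, Eif3g and Eif4a3) and for the proteasome 7 of 28 (25.0%, with Psmb6, Psmd12, Psmd8 and Psmd7). Splicing factors (2 of 30, Hnrnpu and Hnrnpm) and RNA polymerase subunits (2 of 13, Polr2g and Polr2k) had fewer. Of 156 zinc finger genes named Zfp or Zbtb with a window, 48 had a weak one-way window (30.8%, Zfp330, Zfp598, Zfp7 and Zfp512 at the highest levels), and of 125 genes for parts of ubiquitin ligases and related enzymes 46 did (36.8%, Fbxo15, Cul4b, Fbxo5 and Usp15). Chromatin modifiers had 7 of 35, with Kdm5c, Prdm2, Prdm1 and Chd3. DNA replication had 3 of 17 (Mcm6, Gins1 and Orc4), and repair and checkpoint genes 7 of 30, with Msh6 and Fance, and with Trp53inp1, a p53 target that the name pattern caught. At Mcm6, part of the replicative helicase, coverage was 30.0, 48.1, 49.0 and 47.9 with Zbtb11 antibodies and 19.0, 30.7 and 41.8 with FLAG. The list of cyclins and cell cycle kinases had 8 of 27, but its most abundant members, Cdc42 and Cdc42bpg, are a small GTPase and a kinase bound to it rather than cell cycle genes.

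Of the 21 genes of the naive pluripotency list 5 had a window and 4 of these were weak and one-way, Pou5f1, Dppa4, Dppa2 and Lifr, at 324.9, 54.9, 40.7 and 24.3 RPKM. The Pou5f1 window, centred at -1028 bases from the nearest start, had 34.5, 11.2, 49.0 and 31.9 with Zbtb11 antibodies and 23.7, 54.1 and 42.2 with FLAG, with no island and no motif. Of homeobox and lineage genes 3 of 16 had a weak one-way window. These were Sox18, at 1.12 RPKM, and Hoxb1 and Foxl1, which were not expressed at more than 1 CPM. In the histone list, which does not hold H2afv, 0 of 1 gene with a window had a weak one-way window. Solute carriers outside Slc25 had 18 of 58 (Slc38a2, Slc29a1, Slc1a5 and Slc39a10), small GTPases and vesicle traffic genes 18 of 80 (Rab2a, Snx4, Sec14l1 and Rhoc), autophagy and lysosome genes 4 of 21 (Atp6v1h, Ctsb, Atg4b and Atg16l2), MAPK and PI3K kinases 3 of 22 (Map4k4, Pik3cb and Rps6ka2) and glycolysis 2 of 5 (Gapdh and Gpi1). Small nucleolar and micro RNAs had 10 of 44, with Snord14a, Mir1931, Mir695 and Snord38a, which lie within other genes, so their counts are uncertain.

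Loss of Zbtb11 was followed by few changes in these genes. In Zbtb11 KO against the EtOH control, 2 of 1357 tested genes with a weak one-way window passed the threshold, an adjusted p under 0.05 in edgeR's quasi-likelihood test. Over all tested genes 0.899% passed (129 of 14346), and 120 of these 129 were genes with a strong window. Among genes whose strongest window was intermediate 2 of 2038 passed, and among genes with no peak at the promoter 3 of 8573. Both genes fell, and both also had a strong window at another start. The replicate number was also used as a block, which takes same-numbered samples to be paired. In that fit 8 of the 1357 genes passed, all lower, against 2.25% (323 of 14346) of all genes. Among the 1298 tested genes with weak windows alone none (0) passed in edgeR, 3 did in DESeq2 (1.25% of all genes) and 6 with the block. Without the block 1.16% of them had an unadjusted p under 0.05 in edgeR, against 2.80% of all genes. With the block it was 7.94%, against 9.92% of all genes. Uniform p-values would give a share of 0.05, so the fit without the block was cautious. Its low shares do not show a lack of response. Over the 1357 genes the median was 0.00 on the log2 scale, with quartiles of -0.06 and 0.07, against -0.07 and 0.08 over all genes.

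**Figure D5:**
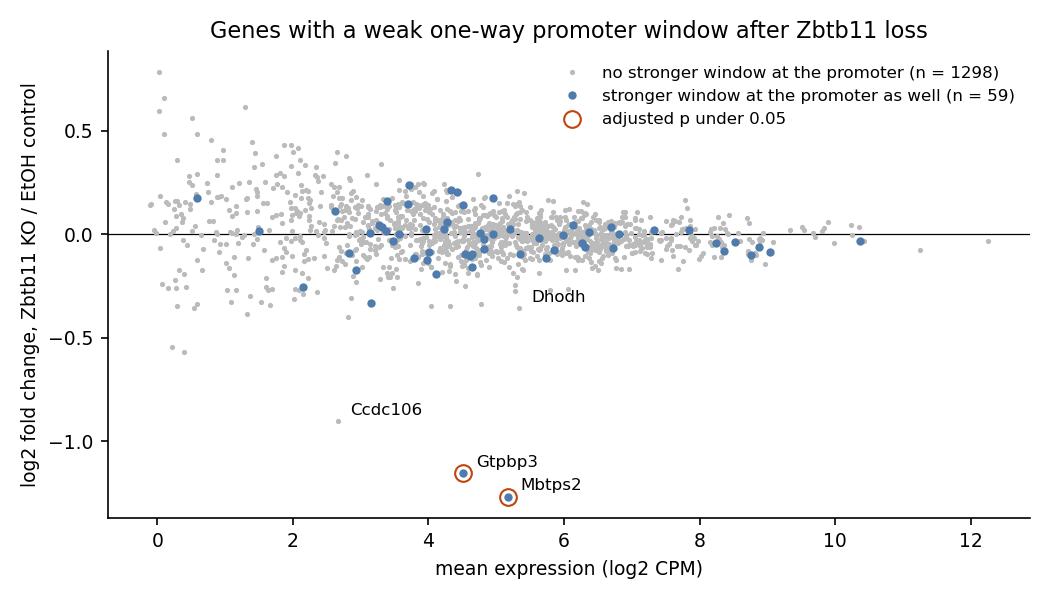
log2 fold change of Zbtb11 KO against the EtOH control (n = 3 libraries each) by mean expression (log2 CPM) for the 1357 tested genes with a weak one-way window. Grey points are 1298 genes with weak windows alone, blue points 59 genes with a stronger window as well, and circles mark the 2 genes with an adjusted p under 0.05, Gtpbp3 at -1.15 and Mbtps2 at -1.27.

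Gtpbp3, which codes for a mitochondrial tRNA-modifying GTPase, was at 23.0, 26.1 and 23.4 CPM in EtOH control replicates 1 to 3, at 10.8, 11.2 and 10.5 CPM in Zbtb11 KO and at 31.6, 33.6 and 34.1 CPM in the 4OHT control. It was lowest in all 3 KO libraries, with no overlap between the groups. Its log2 fold change against the EtOH control was -1.15 ± 0.091 (SE, edgeR adjusted p = 0.000199). The weak window of this gene lay at chr8:74009259-74010459, centred 107 bases into Ano8, while a window with a Zbtb11 mean of 942.4 and a FLAG mean of 780.8 lay at the Gtpbp3 start, 2595 bases away. Ano8 itself, named outside the rule, was at 8.09 ± 1.16 CPM in the EtOH control and 6.42 ± 0.845 CPM in Zbtb11 KO (SD, n = 3, edgeR adjusted p = 1, and 0.207 with the block).

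Mbtps2, a membrane protease that cleaves the transcription factors of sterol synthesis, was at 47.8, 45.6 and 48.8 CPM in the EtOH control, at 21.0, 19.8 and 18.3 CPM in Zbtb11 KO and at 34.2, 40.5 and 46.2 CPM in the 4OHT control. The KO libraries were again below all others. Its log2 fold change was -1.27 ± 0.117 (SE, edgeR adjusted p = 0.000522). Its weak window lay at chrX:154006307-154007507, by the start of Yy2. That gene was listed at 0 counts in all libraries, but it lies inside Mbtps2 on the same strand, so its count is uncertain. The strong window of Mbtps2, with a Zbtb11 mean of 547.7, lay 29725 bases away at the Mbtps2 start. Without replicate 2 or without replicate 3 neither gene passed, with log2 fold changes of -1.13 and -1.15 for Gtpbp3 and -1.30 and -1.20 for Mbtps2.

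Among the genes with weak windows alone, the largest negative value was that of Ccdc106, a coiled-coil protein. It was at 5.68, 7.36 and 6.11 CPM in the EtOH control, at 3.38, 3.59 and 3.28 CPM in Zbtb11 KO and at 6.73, 10.7 and 9.24 CPM in the 4OHT control, a log2 fold change of -0.90 ± 0.195 (SE). The edgeR adjusted p was 0.112, 0.000309 with the block, 0.0144 without replicate 1 and 0.00875 in DESeq2. Its window had 35.6, 28.9, 49.0 and 49.7 with Zbtb11 antibodies and 25.3, 40.9 and 53.9 with FLAG. Dhodh, the mitochondrial enzyme of pyrimidine synthesis, was at 37.5, 40.4 and 40.1 CPM in the EtOH control, at 30.2, 31.1 and 30.8 CPM in Zbtb11 KO and at 49.7, 51.2 and 50.4 CPM in the 4OHT control, again with no overlap between the groups. Its log2 fold change was -0.36 ± 0.070 (SE), with an edgeR adjusted p of 0.0677, 0.000725 with the block, 0.0230 without replicate 1 and 0.000598 in DESeq2. Its window had 43.3, 20.8, 23.0 and 7.10 with Zbtb11 antibodies and 31.7, 24.9 and 21.7 with FLAG. That window, chr8:112117807-112119007, was centred in an intron, 443 bases past the nearest transcript start. The Dhodh gene record itself starts further upstream, at chr8:112132573 on the minus strand. The other 4 genes that passed with the block were Zfyve26, which acts in lysosome recycling (-0.27, block adjusted p in edgeR 0.00730, DESeq2 0.0129), Fundc2 of the outer mitochondrial membrane (-0.34, 0.0254), Egln1, an oxygen-sensing prolyl hydroxylase (-0.27, 0.0413), and Leprot, an endosomal membrane protein (-0.24, 0.0396). Each of the 6 was lower in KO in 3 of 3 same-numbered pairs. The block fit that picked these genes uses the same pairs, so this is not separate support. The Zfyve26 window, chr12:80397850-80399050, was centred in an intron 112 bases past the nearest start, that of Rad51l1. The Zfyve26 gene record starts at chr12:80397269 on the minus strand. Egln1 was at 53.9, 26.6 and 29.5 CPM in the EtOH control and 49.2, 17.5 and 24.3 CPM in Zbtb11 KO, so its groups overlapped and its replicate 1 was the highest in both. Without replicate 1, 4 of 1352 genes passed, Gtpbp3, Mbtps2, Dhodh and Ccdc106, against 1.5% of all genes (212 of 14172).

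Most intervals of the log2 fold change were narrow. Of the 1298 tested genes with weak windows alone, 1217 (93.8%) had a 95% interval of the log2 fold change within -1 to 1, and 820 (63.2%) within -0.5 to 0.5. An absolute log2 fold change over 0.5 was seen for 8 of them (0.616%), against 2.84% of all tested genes. The median half-width of the interval was 0.33 on the log2 scale. Across 24 lists of genes, 221 tested genes had a weak one-way window. Of these, 0 passed in edgeR, 0 with the block, 0 without replicate 1 and 0 in DESeq2. Over all tested genes these shares were 0.899, 2.25, 1.5 and 1.25%. An unadjusted p under 0.05 in edgeR without the block was found for 0 of the 221, against 2.80% of all tested genes. That fit was cautious, so the 0 does not show a lack of response. The genes with a weak one-way window that passed in any of these fits are in none of the lists. The log2 fold changes of the 221 genes ran from -0.31 to 0.66 with a median of 0.01. The median was -0.02 for the 10 mitoribosome genes, 0.02 for the 14 carrier and import genes, 0.03 for the 11 cytosolic ribosome genes and 0.02 for the 47 zinc finger genes. Of all listed genes, whatever their window, 3 of 36 complex I and 7 of 75 mitoribosome genes passed.

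The 4OHT control and the EtOH control both kept Zbtb11 but differed in the line, in 4OHT against ethanol and in the presence of the Cre gene. Of the genes with a weak one-way window 48 of 1357 passed (3.54%), 21 lower and 27 higher, against 4.06% of all genes (583 of 14346). With the block 482 passed (35.5%) against 33.6%. In DESeq2 107 passed, against 8.27% of all genes. In Zbtb11 KO against the 4OHT control 60 passed (4.42%), 32 lower and 28 higher, against 6.45% (925 of 14346), and with the block 460 (33.9%) against 34.9%. In DESeq2 115 passed, against 10.2%. Dhodh was higher in the 4OHT control than in the EtOH control (log2 fold change 0.36, edgeR adjusted p = 0.0262), and so was Gtpbp3 (0.45, adjusted p = 0.0255), so both genes also differed between the control groups, where line and treatment cannot be told apart. Replicate 1 stood apart in the RNA libraries. Without it 238 genes with a weak one-way window passed in the 4OHT control against the EtOH control (17.6% of 1352, against 17.1% of all genes) and 226 in Zbtb11 KO against the 4OHT control (16.7%, against 18.7% of all genes). The comparisons share samples, so their calls are not independent.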

How the data were processed

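ChIP-seq coverage (signal) was deposited by the authors as a table of 7500 consensus peaks. They trimmed reads with Cutadapt, aligned them uniquely to mm9 with Bowtie 1.1.2, dropped duplicate reads (Picard), took MACS2 peaks through IDR, removed blacklisted sites and normalised coverage with DiffBind. They also removed FLAG-Zbtb11 peaks that FLAG ChIP in untagged cells had found, and kept the peaks common to both kinds of ChIP. Whether input reads were subtracted is not given in the sources used here. RNA-seq counts per gene were deposited by the authors, who used rRNA-depleted directional libraries, STAR and HTSeq. The 5 input libraries were not analysed here, and columns of per-sample values not used numbered 0.

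Windows were read as 1-based positions of mm9 and compared with GENCODE vM1 transcripts (Python 3.11.15, pandas 2.3.3, pysam 0.24.0). Sequences came from the mm9 genome. Levels between genes are RPKM, from TMM-scaled CPM and the union of exons. Expression differences were fitted in edgeR 4.0.16 under R 4.3.3 (TMM factors, legacy quasi-likelihood F test on all 9 libraries, genes above 1 CPM in 3 or more libraries, or in 2 where a replicate was left out, two-sided, Benjamini-Hochberg over all tested genes). DESeq2 1.42.0 was an alternative. Shares of windows have 95% Wilson intervals and their differences Newcombe intervals, which cover counting error only.

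The windows, gene lists and tests were chosen with earlier results of these data known. Genes were named where they passed the threshold or, within a list, by the highest mean RPKM (up to 4), and windows where they lay next to the limit or at the ends of the Zbtb11 and FLAG coverage. The genes that passed only with the block, DESeq2 or without replicate 1 were named after their values were seen. Same-numbered replicates correlated at 0.43 to 0.82 in their deviations from the group means across genes, and other pairs at -0.75 to 0.53. All negative values involved replicate 1. Between replicates 2 and 3 the ranges overlapped, as EtOH control 2 was at 0.53 with 4OHT control 3 and at 0.43 with 4OHT control 2. The correlations thus set replicate 1 apart but do not show pairing by number for replicates 2 and 3. For the block fit, pairing by number was taken as an assumption. Scripts were tested on simulated data. Some genes that these rules would name are not reported here.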

Additional observations from a re-analysis of the deposited data

Results flagged for a closer look

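In 43 sets of values from the 4 Zbtb11 libraries, 3 windows had 1 library far from the other libraries, by a gap to its neighbour of more than 0.829 of the range. Chance gives about 1 in 20. The window at Wfs1 had 44.3 in replicate 4 against a median of 29.8, that at Arntl2 had 22.4 in replicate 2 against a median of 4.60, and that at Mcm6 had 30.0 in replicate 1 against a median of 47.99.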

How the results depend on the processing

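The number of windows that met the rule was 1366 to 1500 under 5 other definitions of promoter, divergent pair and mean, and 1448 to 1502 with 1 Zbtb11 library left out, and 88.5 to 100% of the 1480 windows remained. The median FLAG coverage was 47.8 to 52.6 with 1 FLAG library left out. Looser island criteria (200 bases, 50% GC, ratio 0.6) gave islands in 87.2% of the windows. The motif share was 39.1% over whole windows and 47.8% for CGGAAG. The median distance to a start was 179 bases with protein-coding transcripts only. Expressed genes were 86.1% with a limit of 0.5 CPM and 90.3% for protein-coding genes, against 81.5% of all 1665.

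For Zbtb11 KO against the EtOH control the 2 genes became 5 in DESeq2, 8 with the replicate block, 0 to 4 with a replicate left out, 0 for genes with weak windows alone, and 9 (6 lower and 3 higher) without replicate 1 and with the block, an alternative chosen after seeing the data. For the 4OHT control against the EtOH control the 48 genes became 107 in DESeq2, 30 with no filter on low counts, 6 with only the groups compared, 482 with the replicate block, 3 to 238 with a replicate left out and 381 without replicate 1 and with the block. In the same order, the shares over all tested genes were 8.27, 1.61, 1.22, 33.6, 0.09 to 17.1 and 27.6%. For Zbtb11 KO against the 4OHT control the 60 genes became 115 in DESeq2, 38 with only the groups compared, 460 with the replicate block, 4 to 226 with a replicate left out and 386 without replicate 1 and with the block. Here the shares over all tested genes were, in order, 10.2, 4.05, 34.9, 0.56 to 18.7 and 29.5%. The cause of these moves was not tested, apart from the fewer libraries or genes that some alternatives hold. The 8 genes given with log2 fold changes against the EtOH control were lower in KO under all 11 alternatives of that comparison. All 8 passed as lower in the block fit, which is 1 of these alternatives. The others refit the same libraries or part of them, so the shared sign is not separate support. With the main fit counted, Gtpbp3 and Mbtps2 each passed in 10 fits, and Fundc2 and Leprot each in 1. Counts of 25 to 132 steps in a typical window limit the precision of single coverage values.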
